A study of Trachemys scripta elegans with 3 samples.

Results

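Ribosomal protein transcripts were described in the liver of the red-eared slider, *Trachemys scripta elegans*, after exposure to 3 salinities. The members were the assembled transcripts, called unigenes, whose best match in the NR protein database was a turtle or alligator entry with "ribosomal protein" in its name. Matches naming a kinase or a methyltransferase were left out, which removed 10 unigenes such as ribosomal protein S6 kinases. This gave 142 of the 205118 unigenes in the table. Names with 39S, 28S or mitochondrial defined 85 mitochondrial members, of the large 39S subunit (54) or the small 28S subunit (31). Names with 60S or 40S defined 54 cytosolic members, of the large 60S subunit (37) or the small 40S subunit (17). The other 3 carried neither label: the fusion of a ubiquitin-like protein with ribosomal protein S30, encoded by FAU, and 2 unigenes of L10a.

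The turtles were 2 years old and came from a farm. They were kept for 30 days in freshwater (0 psu, the control), in 5 psu or in 15 psu water, 3 turtles per salinity, and fasted before sampling. Pieces of the 3 livers of a group were mixed, and polyadenylated RNA of the mixture gave 1 library per salinity. There was thus no replicate library, the spread between turtles is unknown, and no difference below was tested.

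Ribosomes translate mRNA into protein. Those of the cytosol are built from ribosomal RNAs and many proteins, nearly all of them needed in equal numbers, and the mRNAs of these proteins are among the most abundant in most cells. In vertebrates these mRNAs begin with a pyrimidine tract, through which the mTOR pathway sets how strongly they are translated, a step that mRNA levels do not show. Mitochondria hold a separate ribosome for the few proteins encoded by mitochondrial DNA. Its proteins are encoded in the nucleus, made in the cytosol and imported. The liver makes and secretes most plasma proteins, and hepatocytes are rich in mitochondria.

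Levels are given as FPKM, read fragments per unigene normalised for its length and for library size, which allows unigenes of different length to be compared. The summed FPKM of the libraries ran from 960385 to 986004, and FPKM had no scaling between libraries beyond that. For the 25794 unigenes with FPKM 1 or more throughout, the log2 ratios had a median of 0.08 for 0 vs. 5 psu, 0.02 for 0 vs. 15 psu and −0.05 for 5 vs. 15 psu. All 11 hepatocyte markers looked up were present, and their summed FPKM was 27041 in freshwater, 18059 at 5 psu and 20587 at 15 psu. Sums for markers of other cells were lower: 885 to 1558 for erythrocytes, 225 to 266 for macrophages, 29.4 to 33.7 for endothelium and 53.0 to 63.7 for dividing cells. At 0, 5 and 15 psu they were 99.0, 59.1 and 45.7 for lymphocytes, 85.9, 68.2 and 42.7 for fibroblasts and 54.0, 62.9 and 15.3 for bile duct cells. Strong markers weigh most in such sums. ALB of the hepatocytes was 4846, 824 and 1268. EPCAM of the bile duct cells was 43.1, 58.7 and 10.3, while KRT19 was 6.12, 0.34 and 2.39. At 5 psu 3 of 11 hepatocyte, 1 of 4 lymphocyte and 1 of 3 fibroblast markers were higher than in freshwater. At 15 psu 2 of 11 hepatocyte markers were higher. Fewer cells of a type and less RNA per cell cannot be told apart in such mixtures.

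The name of the set was checked against the other annotations of the same unigenes. A KEGG ribosomal protein name was attached to 113 of the 142 members. The members above 0 in any library named 115 genes, and 103 of these symbols also occur in the RefSeq annotation of the species. For 98 genes there was 1 unigene, and 17 genes had 2 or 3. Of the RefSeq mitochondrial ribosomal protein symbols, 65 of 74 had a member. Coverage of the cytosolic symbols was thinner, 38 of 72, and a further 25 had an abundant unigene whose best match was in another animal and which the naming rule therefore passed over. Of the 142 members, 134 reached FPKM 1 in at least 1 library and 8 did not. There were 118 above 0 in all 3 libraries, 19 listed at 0 in 1 or 2 of them, and 5 listed at 0 throughout.

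Cytosolic ribosomal proteins were far more abundant than mitochondrial ones in every library. With 1 unigene per gene, the one of highest mean, the 32 cytosolic genes that reached FPKM 100 had a median of 1893 in freshwater, 2132 at 5 psu and 2042 at 15 psu. The 70 mitochondrial genes had medians of 26.8, 28.2 and 29.8. Over all 44 cytosolic genes, whatever their level, the medians were 1184, 1310 and 1401. All cytosolic members together held 6.06% of the summed FPKM in freshwater, 6.93% at 5 psu and 7.29% at 15 psu, and all mitochondrial members 0.302%, 0.312% and 0.339%.

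**Figure D1:**
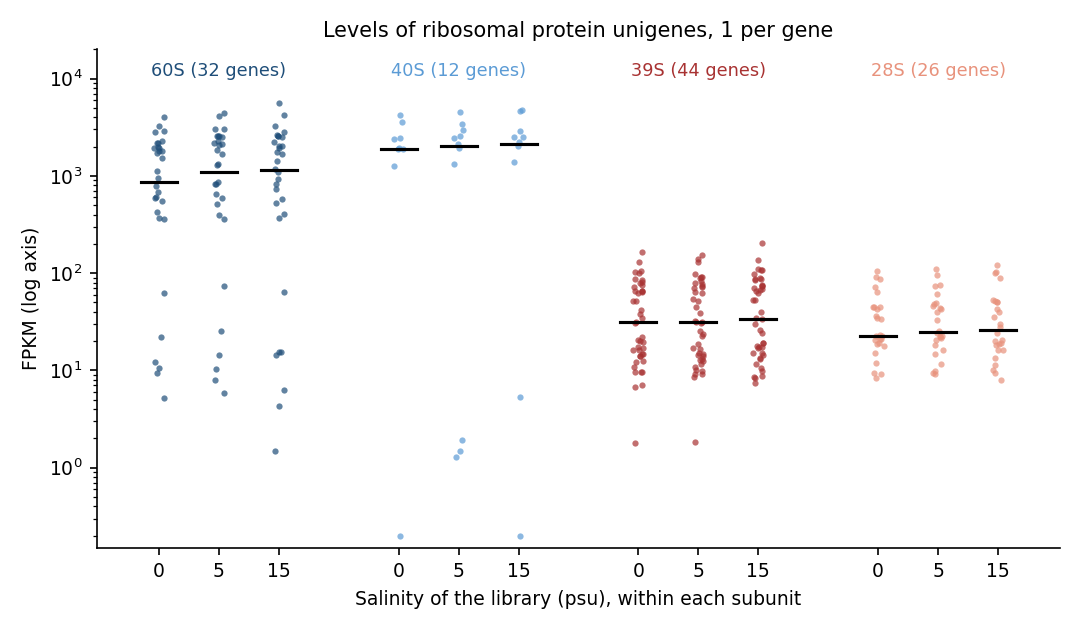
FPKM (log axis) of ribosomal protein unigenes, 1 per gene, by subunit and by salinity of the library in psu. Points are genes, black lines are medians over all genes of the subunit, and genes at 0 in a library are not drawn. The abundant 60S and 40S genes lie between 363 and 5598, and the 39S and 28S genes at or below 206, in every library.

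Within a subunit the levels were spread unequally. The 24 abundant 60S genes had quartiles of 663 and 2197 FPKM at 0 psu, a 3.31-fold spread, and ran from 364 for RPL14 to 3984 for RPL28. The 8 abundant 40S genes were closer together, with quartiles 1.44-fold apart at 0 psu. The 44 genes of the 39S subunit had quartiles 4.66-fold apart and the 26 genes of the 28S subunit 2.38-fold apart at 0 psu. The transcripts of 1 subunit thus spanned several-fold in level.

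The comparisons asked whether ribosomal protein transcripts differed between freshwater and the 2 saline groups. Most abundant cytosolic members were slightly higher at both salinities in FPKM as deposited. Of the 33 members at FPKM of at least 100 in a library, 29 were higher at 5 psu than at 0 psu, against 50.4% of all unigenes with a turtle or alligator match at that level. Their median log2 fold change was 0.14, a fold of 1.10, with quartiles of 0.07 and 0.24. At 15 psu, 29 of the 33 were again higher than at 0 psu, against a background of 57.1%, with a median of 0.19, a fold of 1.14, and quartiles of 0.08 and 0.26. Between 5 and 15 psu 18 of 33 were higher at 15 psu, against 58.9%, and the median was 0.02. Both comparisons with freshwater use the same control library.

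The size of these small differences depended on how the libraries were scaled, and so did the direction for 0 vs. 15 psu. Relative to the most abundant beta-actin unigene, which was itself higher at 15 psu, every log2 value of 0 vs. 15 psu was lowered by 0.22, and the cytosolic members then had a median of −0.03 with 12 of 33 higher, while the 628 other unigenes with a turtle or alligator match at that level had a median of −0.17 with 32.3% higher. With the median ratio of widely expressed unigenes set to 1, 24 of 33 were higher at 5 psu with a median of 0.06, and 29 of 33 at 15 psu with a median of 0.17, against 37.6% and 53.0% of the other unigenes. Scaling by the upper quartile gave 33 of 33 and 32 of 33, against 65.1% and 63.2%. For 5 vs. 15 psu 26 of 33 were higher with the median ratio set to 1, 13 by the upper quartile and 4 relative to beta-actin. The other unigenes gave 65.6%, 53.3% and 35.7%, and the direction of the members changed with the scaling here too. The distance from other abundant unigenes is untouched by scaling, apart from the pseudocount. In FPKM as deposited these 628 other unigenes had medians of −0.02 for 0 vs. 5 psu and 0.05 for 0 vs. 15 psu, which put the cytosolic members 0.16 and 0.14 log2 units above them. For 5 vs. 15 psu the cytosolic members lay 0.06 below. The hepatocyte, lymphocyte and fibroblast marker sums were lower at both salinities, and those of erythrocytes and bile duct cells at 15 psu. Some single hepatocyte, lymphocyte and fibroblast markers went the other way. The part of cell types in the distance from other unigenes was not tested.

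**Figure D2:**
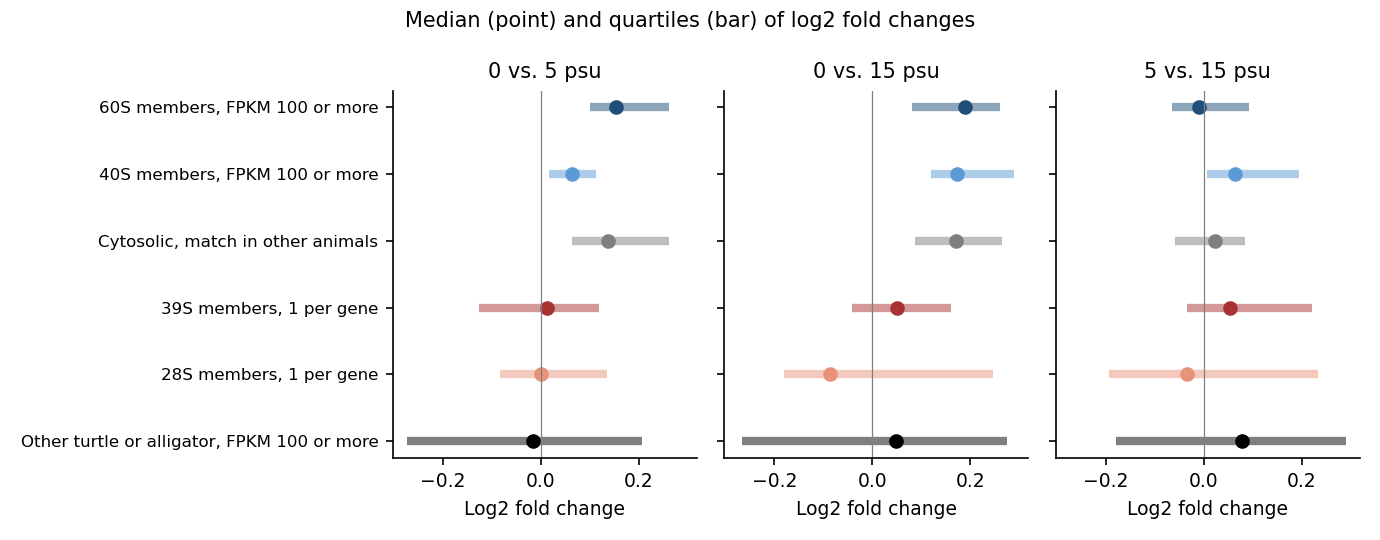
Median (point) and quartiles (bar) of log2 fold changes in FPKM as deposited, in the comparisons 0 vs. 5, 0 vs. 15 and 5 vs. 15 psu. The 60S and 40S medians were 0.15 and 0.06 for 0 vs. 5 psu and 0.19 and 0.17 for 0 vs. 15 psu, above the medians of −0.02 and 0.05 for other abundant unigenes, and relative to beta-actin every value of 0 vs. 15 psu would be lower by 0.22.

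The pattern over the 3 salinities was also counted. Of the 33 abundant cytosolic members, 15 rose at both steps, from 0 to 5 and from 5 to 15 psu, against 23.8% of all turtle or alligator unigenes at that level, 1 fell at both steps, against 14.6%, and 14 were highest at 5 psu, against 26.5%. At both 5 and 15 psu, 26 of the 33 were above their value at 0 psu, against 36.5%. These orders are for FPKM as deposited and were not recounted under other scalings. Relative to beta-actin 12 of the 33 were higher at 15 than at 0 psu, against 32.3% of the other abundant unigenes. For 5 vs. 15 psu the number higher ran from 4 relative to beta-actin to 26 with the median ratio set to 1. The ratio of the highest to the lowest library was below 1.5 for 30 of the 33 members, with a median of 1.17.

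The other 3 members were RPL39, RPL7A and RPS9. RPL39, a very small protein of the tunnel through which the nascent chain leaves the ribosome, had FPKM of 593 in freshwater, 834 at 5 psu and 1189 at 15 psu. It was the 1 abundant member at the 2-fold criterion. For 0 vs. 15 psu, 7.95% of turtle or alligator unigenes at FPKM of at least 100 met it. The log2 fold change of RPL39 for 0 vs. 15 psu was 1.00. That value was 0.99 with the median ratio set to 1 and 0.78 relative to beta-actin, both under the criterion. RPL7A, the most abundant 60S member on average, had FPKM of 3290, 4153 and 5598 in the same order, 1.70-fold higher at 15 psu than at 0 psu. Both were lowest in freshwater and highest at 15 psu. RPS9, which helps to form the entry of the mRNA channel, was instead highest at 5 psu, with FPKM of 1883 in freshwater, 2946 at 5 psu and 2521 at 15 psu.

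The other abundant 60S members moved less. RPL32 had FPKM of 959, 1312 and 1099 at 0, 5 and 15 psu. RPL37 had 682, 872 and 930. RPL13A, known in mammals also for silencing of inflammatory mRNAs outside the ribosome, had 1956, 2297 and 2558 and rose at both steps, as RPL37 did. RPL10A, part of the mobile L1 stalk at which deacylated tRNA leaves, was 2572 at 5 psu against 1948 at 0 psu and 1912 at 15 psu. RPL28 was 3984, 4402 and 4243, and RPL21 was 2920, 3022 and 2797, so that the library with the highest value was the one at 5 psu for both. In FPKM as deposited the abundant 60S members had a median of 0.15 for 0 vs. 5 psu, with 23 of 25 higher. For 0 vs. 15 psu the median was 0.19, with 21 of 25 higher. All turtle or alligator unigenes at that level gave 50.4% and 57.1%. Relative to beta-actin each log2 value for 0 vs. 15 psu would be lower by 0.22, which exceeds the median.

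The 3 proteins of the acidic stalk, which recruits the elongation factors to the ribosome, differed little between libraries. RPLP0, the base of the stalk, had FPKM of 1510 in freshwater, 1680 at 5 psu and 1668 at 15 psu. RPLP1 had 785, 822 and 831, and RPLP2 had 1944, 2152 and 2233. In FPKM as deposited all 3 were lowest at 0 psu. Their log2 fold changes lay between 0.06 and 0.20 in the comparisons with freshwater, RPLP1 being under the lower quartile of the abundant cytosolic members in both. Relative to beta-actin the values for 0 vs. 15 psu would be lower by 0.22, which exceeds each of them. RPL12, which joins the stalk base, had 1114, 1300 and 1414. A second unigene named RPLP2-like was 62.6, 74.2 and 63.3.

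One gene had 2 abundant unigenes that went opposite ways. RPL13 was represented by c96900_g2, with FPKM of 2852 in freshwater, 3039 at 5 psu and 3228 at 15 psu, and by c96900_g1, with 1101, 1020 and 921. The latter was the 1 abundant cytosolic member that fell at both steps. Both belong to the same Trinity cluster, and how reads were divided between them is uncertain.

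The 8 abundant 40S members were all higher at 15 psu than at 0 psu, against 57.1%, with a median of 0.17. At 5 psu 6 of 8 were higher, against 50.4%, with a median of 0.06. RPS15A, the most abundant of them, had FPKM of 4260 in freshwater, 4553 at 5 psu and 4668 at 15 psu. RPS2, which with RPS9 lines the mRNA entry channel, was 3588, 3440 and 4741, high at 15 psu alone. RPS4 was 2451, 2570 and 2923. RPS3A had 1254, 1307 and 1388, so that it and RPS4 were higher at each step. RPS14 had 1953, 1920 and 2245, and RPSA, also known as a laminin receptor, had 1902, 2127 and 2016. FAU, whose product is cut to release ribosomal protein S30, was 2727, 2496 and 2990, lowest at 5 psu. Relative to beta-actin each of the log2 values for 0 vs. 15 psu would be lower by 0.22, which exceeds their median.

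**Figure D3:**
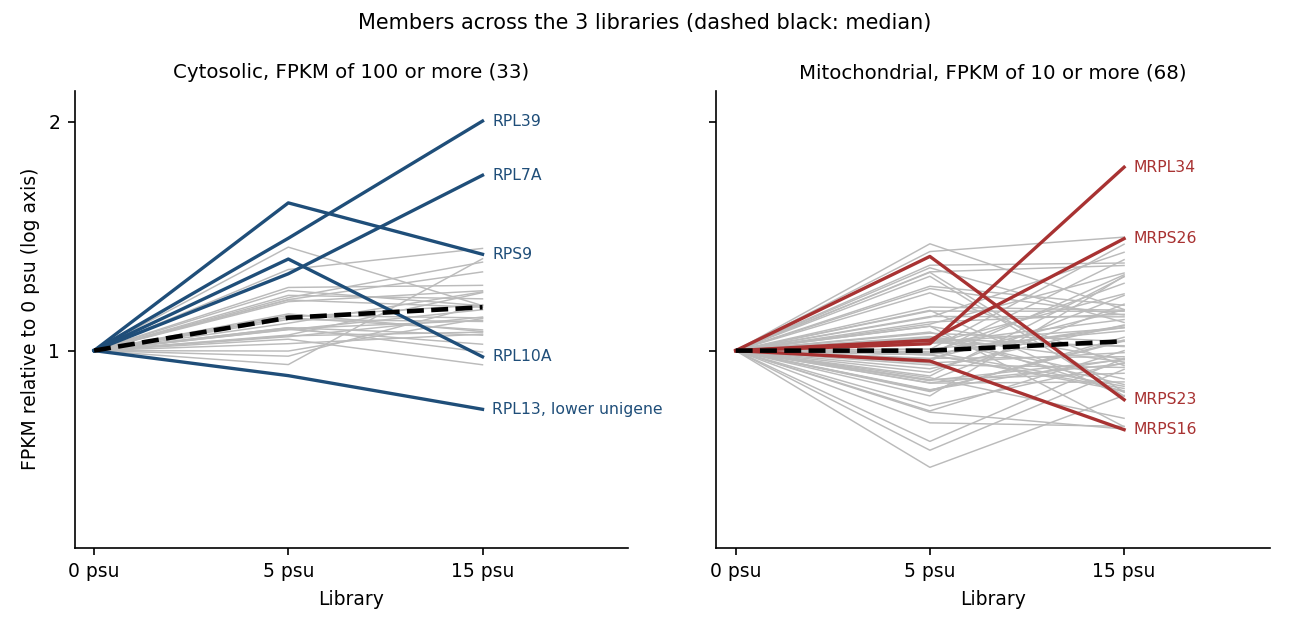
FPKM of each member relative to its value at 0 psu (log axis) in the libraries at 0, 5 and 15 psu, in FPKM as deposited, for the 33 abundant cytosolic members and 68 mitochondrial members at FPKM of at least 10. Lines are members, the dashed line is the median, and the MRPL3 unigene at 29.9-fold is left out. RPL39, at 2.01-fold, and RPL7A, at 1.70-fold, stand above the cytosolic bundle at 15 psu, which relative to beta-actin would sit 0.22 log2 units lower.

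Mitochondrial members at FPKM of at least 10 showed no common direction. Of 69 members at FPKM of at least 10 in a library and above 0 in all, 35 were higher at 5 psu than at 0 psu, against 55.8% of all turtle or alligator unigenes at that level, and the median log2 fold change was 0.00. For 0 vs. 15 psu 38 of 69 were higher, against 55.4%, with a median of 0.04, and for 5 vs. 15 psu 40 of 69, against 50.8%, with a median of 0.03. At FPKM of at least 100 there were 9 mitochondrial members. Of these, 5 were higher at 5 psu and 8 at 15 psu than at 0 psu, against 50.4% and 57.1%. Their medians were 0.05 and 0.20, the latter near the 0.19 of the cytosolic members above the same floor. MRPS26 and MRPL4 reached FPKM 100 only at 15 psu, DAP3 only at 5 and 15 psu, and MRPL14 only at 0 psu. The filter thus chose these members partly by the values compared. With the median ratio of widely expressed unigenes set to 1, the numbers higher were 20, 38 and 48 of 69. The 628 other turtle or alligator unigenes then gave 37.6%, 53.0% and 65.6%. By the upper quartile the numbers were 57, 51 and 33, against 65.1%, 63.2% and 53.3%. Relative to beta-actin they were 30, 16 and 23, against 44.3%, 32.3% and 35.7%. These shares are for FPKM of at least 100, and each scaling shifts every unigene alike. Over all tested members the mitochondrial median lay 0.16 log2 units below the cytosolic one for 0 vs. 5 psu and 0.17 below for 0 vs. 15 psu, but 0.02 below for 5 vs. 15 psu. Of 70 genes, 14 rose at both steps and 8 fell at both, against 19.0% and 12.0% of turtle or alligator unigenes at FPKM of at least 10. Among the 14 was c119969_g2, which has no KEGG ribosomal name. It stood for MRPL3 as the unigene of highest mean, through its value of 53.5 at 15 psu.

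With 1 unigene per gene, both mitochondrial subunits had medians within 0.1 log2 units of 0 in the comparisons with freshwater. The 39S genes had medians of 0.01 for 0 vs. 5 psu and 0.05 for 0 vs. 15 psu, with 27 of 44 higher at 15 psu. The 28S genes had medians of 0.00 and −0.09, with 12 of 26 higher at 15 psu, and over every tested 28S unigene the latter median was −0.14. Among the most abundant 39S members, MRPL23, whose bacterial counterpart sits beside the exit tunnel, had FPKM of 164 in freshwater, 152 at 5 psu and 206 at 15 psu. MRPL52, found in the mitochondrial but not the bacterial ribosome, had 131, 138 and 135. MRPL11, at the base of the mitochondrial stalk, had 100.5, 129 and 109, and MRPL54 had 104, 92.2 and 107.

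MRPL34, a small protein of the large subunit, gave the largest difference among the 39S members with a KEGG name, with FPKM of 38.1 in freshwater, 38.9 at 5 psu and 66.4 at 15 psu. It was 1.74-fold higher at 15 psu than at 0 psu and nearly level between 0 and 5 psu. MRPL57 was 51.8, 45.1 and 64.9. Of the members that were lower at 5 psu, MRPL1, at the mitochondrial L1 stalk, had 20.5, 14.4 and 17.9, MRPL18 had 41.7, 30.8 and 39.4, and MRPL55 had 19.4, 14.7 and 18.9. These 3 were lowest at 5 psu and nearer the freshwater value at 15 psu. They were chosen for their falls from 0 to 5 psu, so their pattern describes that choice. MRPL35, and MRPS35 of the small subunit, were chosen for falls from 0 to both 5 and 15 psu, so their low values at 15 psu describe that choice. MRPL35 was 10.7, 8.62 and 8.53. MRPL42, chosen for its rise from 0 to 5 psu, was 17.0, 23.4 and 19.2. MRPL12, a stalk protein that in mammals also binds the mitochondrial RNA polymerase, had 65.9, 73.1 and 73.0.

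Among the 28S members, MRPS24 had FPKM of 105 in freshwater, 95.5 at 5 psu and 120 at 15 psu. DAP3, a GTP-binding protein of the small subunit also named for a part in cell death, had 90.5, 110 and 104, and MRPS18B had 86.1, 76.1 and 89.7. MRPS26 was 71.8 in freshwater, 74.0 at 5 psu and 101 at 15 psu, 1.40-fold higher at 15 psu than in freshwater. The next 4 were chosen for their falls from 5 to 15 psu, so their pattern describes that choice. MRPS23 had 19.0, 25.2 and 16.3, and MRPS14 had 33.9, 42.9 and 29.9. MRPS10 had 9.18, 11.5 and 8.0, and MRPS18A had 45.0, 48.4 and 35.7. MRPS16, chosen for its fall from 0 to 15 psu, was 63.4, 61.4 and 49.9. MRPS35, chosen for falls from 0 to both 5 and 15 psu, was 11.9, 9.84 and 9.35. MRPS30, named for the small subunit but placed in the large one in mammalian structures, had 14.9, 14.8 and 13.3.

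Most changes of 2-fold among ribosomal proteins lay in unigenes without a KEGG ribosomal name. Among all unigenes at FPKM of at least 1 in either library, 65.5% differed by 2-fold or more for 0 vs. 5 psu, 64.0% for 0 vs. 15 psu and 65.5% for 5 vs. 15 psu. Among unigenes with a turtle or alligator match the shares were 29.9%, 29.6% and 30.5%. The cytosolic members past 2-fold numbered 4 of 44, then 10 of 47 and 12 of 50, and the mitochondrial ones 7 of 81, 4 of 78 and 6 of 79. These are shares of 9.09%, 21.3% and 24.0% for the cytosolic members, the latter 2 not far from those of turtle or alligator matches, and of 8.64%, 5.13% and 7.59% for the mitochondrial ones. Cytosolic members 2-fold higher at the higher salinity numbered 4, 9 and 8, where all unigenes gave 37.7%, 30.7% and 26.6%, and those 2-fold lower numbered 0, 1 and 4, where all unigenes gave 27.8%, 33.3% and 38.9%. Mitochondrial members gave 2, 1 and 3 higher and 5, 3 and 3 lower.

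The members with and without a KEGG ribosomal protein name differed widely in this respect, but also in level. No member without one exceeded FPKM 64.9, the value of MRPL57 at 15 psu, while those with one reached 5598. The effects of name and level were not separated, and the shares over all unigenes with and without a KEGG name were not computed. None of the 70 mitochondrial members with such a name reached 2-fold in any of the 3 comparisons, while 7 of 11, 4 of 8 and 6 of 9 of those without one did. For cytosolic members the counts were 1 of 38, 4 of 39 and 3 of 39 with a KEGG name and 3 of 6, 6 of 8 and 9 of 11 without. A unigene at or near 0 in 1 library of a pair was counted only if the other reached FPKM 1. Such a unigene then passed 2-fold by construction, as RPS16 c117191_g2 did at 0, 0 and 5.31. Of the 29 members without a KEGG name, 18 were listed at 0 in a library, against 6 of the 113 with one.

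**Figure D4:**
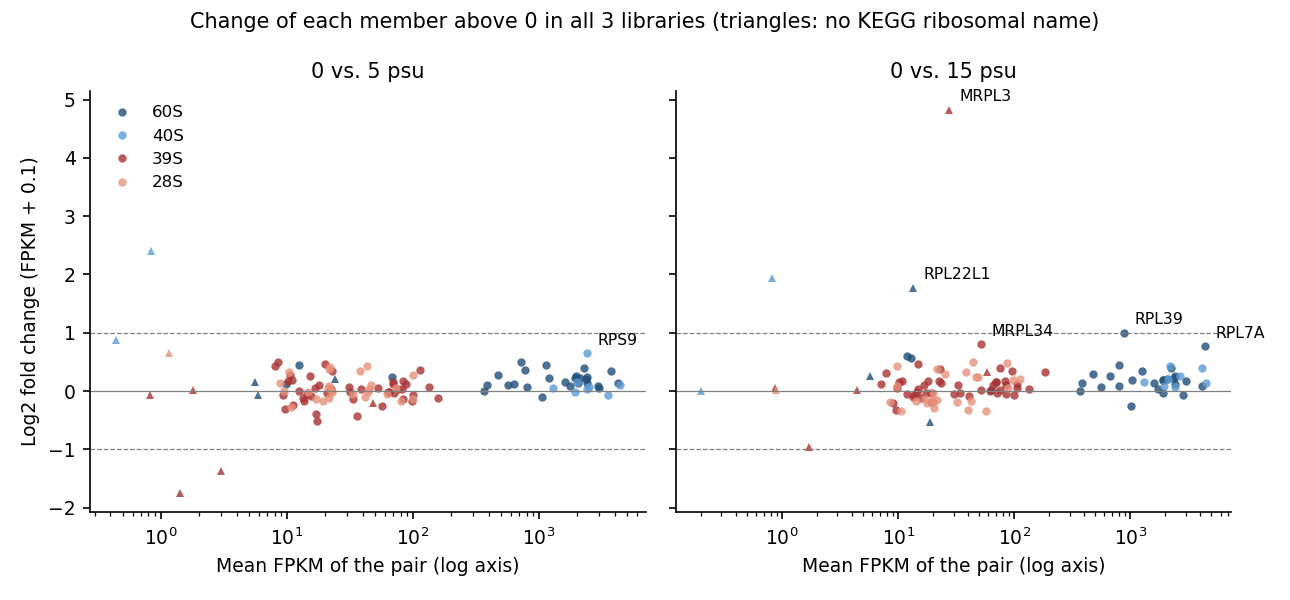
Log2 fold change of FPKM + 0.1, as deposited, against the mean FPKM of the pair (log axis), for cytosolic and mitochondrial members above 0 in all 3 libraries. Colours are subunits, triangles have no KEGG ribosomal name, and dashed lines mark 2-fold. At 15 psu the unigenes named MRPL3 at 4.83, a minor one of RPS14 at 1.93 and one of RPL22L1 at 1.77 lie above the line, and RPL39 lies on it at 1.00.

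The largest difference of a member above 0 in all libraries was in a unigene whose best match was MRPL3, a large-subunit protein near the site of peptide bond formation. This unigene, c119969_g2, had FPKM of 1.79 in freshwater, 1.82 at 5 psu and 53.5 at 15 psu, 29.9-fold higher at 15 psu than at 0 psu. It has neither a KEGG nor a SwissProt ribosomal name, so that its identity rests on the NR match alone. The MRPL3 unigene with such a name, c97436_g1, had 10.2, 11.6 and 11.5 and showed no such rise. Which part of the gene each unigene covers was not analysed here.

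Variant ribosomal proteins, the paralogs that can replace a standard subunit protein, were at low levels. RPL22L1, the paralog of RPL22, had 2 unigenes. The first, c102488_g1, had FPKM of 6.08, 5.81 and 21.0, 3.46-fold higher at 15 psu than at 0 psu. It had neither a KEGG nor a SwissProt ribosomal name. Its 5.81 at 5 psu was shared by 159 unigenes, with 14 and 10 at 0.01 below and above. Its 6.08 at 0 psu was shared by 62, with 26 and 8. The second, c93775_g1, had 10.5, 14.3 and 15.5 and both names. Both were highest at 15 psu, but only the former was level between 0 and 5 psu. RPL3L, in mammals the form of RPL3 in striated muscle, was 9.43, 10.3 and 14.3, beside 427, 517 and 520 for RPL3 itself. RPL7L1 was 5.24, 5.86 and 6.29, beside 371, 398 and 369 for RPL7.

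There were 6 members that reached FPKM 10 in a library and were listed at 0 in another, so no fold change is given for them. RPL18 had a second unigene, c57632_g1, at 0, 7.51 and 32.3 FPKM at 0, 5 and 15 psu, beside the main one, c97466_g1, at 2200, 2552 and 2637. A minor RPL10A unigene, c203626_g1, was 22.8, 7.51 and 0, and the RPL11 unigene among the members, c194317_g1, was 12.2, 8.04 and 0. RPL11 carries ribosomal stress to p53 in mammals by binding MDM2. Of the mitochondrial ones, MRPL28 c100108_g1 was 11.8, 0 and 11.2, MRPS5 c108891_g1 was 11.3, 7.52 and 0, and MRPS36 c66538_g1 was 0, 19.3 and 0, while their abundant unigenes were present in every library, at 62.6 to 67.9 for MRPL28, 16.3 to 18.0 for MRPS5 and 22.7 to 28.1 for MRPS36. The values are ones at which many unigenes pile up: 22.77 at 0 psu was shared by 81 unigenes and its neighbours at 0.01 below and above by 1 and 0, 19.25 at 5 psu by 115 with 0 and 1, and 32.33 at 15 psu by 22 with 0 and 1. The read counts behind these values were not used here.

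Since the naming rule passed over abundant cytosolic transcripts with a best match in another animal, the same values were taken for 39 such unigenes with a KEGG cytosolic ribosomal protein name and FPKM of at least 100. They are not members. In FPKM as deposited, 34 of 39 were higher at 5 psu than at 0 psu, with a median log2 fold change of 0.14. At 15 psu it was also 34 of 39, with a median of 0.17. The 628 other turtle or alligator unigenes gave 48.4% and 54.6%. Relative to beta-actin 13 of 39 were higher at 15 psu, against 32.3%. With the median ratio set to 1, 27 of 39 were higher at 5 psu, against 37.6%. The 39 include RPS6, the substrate of S6 kinase, with FPKM of 2245, 2416 and 2506 at 0, 5 and 15 psu, and the abundant RPL11 unigene c93148_g1, with 3160, 3162 and 3380. RPS27A, a fusion with ubiquitin, had 887, 955 and 1002. RPL37A was the one with the largest difference for 0 vs. 5 psu, with 263, 425 and 380, and RPS20 was high at 5 psu alone, with 878, 1258 and 819. No unigene among the 39 reached 2-fold in any comparison. Of all turtle or alligator unigenes at that level, 5.51%, 7.95% and 8.20% did for 0 vs. 5, 0 vs. 15 and 5 vs. 15 psu.

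Genes that build or regulate ribosomes were examined in 3 lists, each with the unigene of highest mean per gene. The list for cytosolic ribosome biogenesis, with 29 tested genes, had medians of 0.07 for 0 vs. 5 psu and 0.06 for 0 vs. 15 psu, and 18 and 16 genes were higher. All turtle or alligator unigenes tested had medians of 0.08 and 0.01, with 56.9% and 50.8% higher. EMG1, a methyltransferase of the small-subunit rRNA, had FPKM of 1.24, 2.59 and 2.97, with log2 fold changes of 1.01 and 1.20, the former over the 2-fold criterion by less than the median ratio of 0.08 between these libraries. Nucleophosmin, NPM1, was the most abundant, at 274, 284 and 305. POLR1B, a core subunit of RNA polymerase I, was 12.9, 7.55 and 8.77, and fibrillarin, FBL, which methylates rRNA, was 30.1, 32.4 and 35.5.

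In the list for mitochondrial ribosome assembly and translation, with 21 genes, 16 were higher at 5 psu than at 0 psu, with a median of 0.12, and 14 were higher at 15 psu, with a median of 0.08, beside the same 56.9% and 50.8%. NOA1, a GTPase of small-subunit assembly, was 2-fold lower at 5 psu alone, at FPKM of 7.17, 2.74 and 6.96. The elongation factor TUFM was 51.1, 52.0 and 53.9, and the recycling factor MRRF was 15.9, 21.5 and 23.9. In the list for control of ribosomal protein mRNA and ribosome surveillance, with 14 tested genes, 10 were higher at 5 psu and 10 at 15 psu, none by 2-fold, with medians of 0.13 and 0.09, beside the same shares. MYC, a transcriptional activator of ribosome genes, was 8.41, 11.3 and 12.7, EIF4EBP1, a repressor of cap-dependent translation that mTOR inactivates, was 58.5, 65.1 and 72.3, and MTOR was 4.35, 5.16 and 4.15.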

How the data were processed

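Livers of 3 turtles per salinity were pooled and sequenced as 1 library. The authors trimmed reads with SeqPrep and Sickle, assembled them de novo with Trinity, annotated unigenes by BLASTX, and, per the labels, used Bowtie and RSEM to quantify them. Their versions are not given in the sources used here. The deposited FPKM values have 2 decimals. The labels give the salinities as percentages and the protocol as psu.

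Members were chosen from the deposited NR text. Members and gene lists were chosen with earlier results of these data known. A pseudocount of 0.1 was added to FPKM for log2 fold changes, which understates changes of low unigenes. Unigenes at FPKM of at least 1 in either library were counted, by a 2-fold criterion. With 1 library per salinity no test was run, and since FPKM carries no depth no interval was given.

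Named unigenes were the 4 highest per subunit, the 5 largest rises and falls per comparison among those above 0 in all libraries and at FPKM 10 or more, those changed 2-fold at FPKM 20 or more, those at 0 in a library and 10 or more in another, and members of set roles (stalk, ubiquitin fusions, paralogs). Some members that this rule names are not reported here. Further members and non-members were named after their values were seen. Gene symbols were read from NR or KEGG names and looked up in RefSeq (CAS_Tse_1.0). The alternatives were other pseudocounts, filters, scalings, criteria and subsets of members. The steps were tested on simulated data. Python 3.11.15, numpy 2.4.6, pandas 2.3.3 and matplotlib 3.10.9 were used.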

Additional observations from a re-analysis of the deposited data

Results flagged for a closer look

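Ribosomal protein unigenes whose best match was in rat or mouse were outside the comparisons above. Of 9 such unigenes, 1 was above 0 in the library at 0 psu, 4 were above 0 at 5 psu and 7 were above 0 at 15 psu. Their summed FPKM was 10, 7.78 and 27.7, so that the sum at 5 psu was below the control. The largest part of the sum at 15 psu came from c158546_g1, at 14.4, for which no species name was read from the match. Values as low as 0.82 and 0.86 were among those above 0 at 15 psu. Among the 103 ribosomal protein unigenes of other species below FPKM 100, 45, 37 and 42 were above 0. The 9 are listed because more of them were present in the saline libraries than in the control library.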

How the results depend on the processing

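No paired analysis was possible because each salinity had 1 library, and for the same reason no library was left out. Of 396 recomputed counts, shares and medians, 343 stayed within 1.5 times (counts and shares) or 0.1 log2 units (medians). The latter is large beside the cytosolic medians of 0.16 and 0.20 in the comparisons with freshwater. A shift within it took the 0 vs. 5 psu median of the 33 abundant cytosolic members from 0.14 to 0.06, with the median ratio set to 1. Those outside these limits follow.

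For the numbers of members changed 2-fold, a filter at FPKM 5 gave 1, 5 and 4 cytosolic members for 0 vs. 5, 0 vs. 15 and 5 vs. 15 psu, and 4 mitochondrial ones for 0 vs. 5 psu. A filter at FPKM 10 gave 0, 4 and 2 cytosolic and 2, 2 and 3 mitochondrial members. With 1 unigene per gene there were 5 and 7 cytosolic members for 0 vs. 15 and 5 vs. 15 psu, and 0, 1 and 1 mitochondrial members. The mitochondrial one was the MRPL3 unigene c119969_g2 both times. With unigenes above 0 in all 3 libraries there were 1, 3 and 3 cytosolic and 2, 1 and 2 mitochondrial members, and the share of all unigenes changed 2-fold fell to 25.04%, 25.47% and 25.74%. A 1.5-fold criterion gave 10 mitochondrial members for 5 vs. 15 psu. These subsets hold fewer low or unsteady unigenes by construction. Among members with a KEGG name, a subset chosen after the data were seen, there were 1, 4 and 3 cytosolic and 0, 0 and 0 mitochondrial members. Among 73 cytosolic unigenes of any animal at FPKM 100 or more, also chosen afterwards, there were 0, 1 and 0. All turtle or alligator unigenes at that level gave 5.51%, 7.95% and 8.20%.

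For the medians of log2 fold changes, scaling by the upper quartile gave 0.30 for cytosolic, 0.33 for 60S, 0.24 for 40S, 0.14 for mitochondrial, 0.13 for 39S and 0.14 for 28S members in 0 vs. 5 psu. Relative to beta-actin the same order gave −0.019, −0.022, 0.034, −0.19, −0.18 and −0.36 for 0 vs. 15 psu, and −0.15, −0.16, −0.13, −0.16, −0.13 and −0.27 for 5 vs. 15 psu. With turtle matches alone the 40S median for 0 vs. 15 psu was 0.40. The difference of the mitochondrial and cytosolic medians stayed within 0.1 log2 units in the alternatives where it was recomputed. The scalings could hardly change this difference, since each shifts both medians alike. None of these alternatives compared the sets at equal level, and a shared floor does not either. At FPKM of at least 100 in a library, the 9 mitochondrial members ran from 71.8 to 164 in freshwater. The 32 cytosolic genes ran from 364 to 4260. Above that floor the mitochondrial and cytosolic medians of log2 fold changes were 0.05 and 0.14 for 0 vs. 5 psu. They were 0.20 and 0.19 for 0 vs. 15 psu and 0.22 and 0.02 for 5 vs. 15 psu, with 9 and 33 members. Of the 9, MRPS26, MRPL4 and DAP3 reached the floor only in saline libraries and MRPL14 only at 0 psu. The cause of the other shifts was not tested. Of 150 log2 fold changes of named unigenes, 23 were past 2-fold. Of 900 values of them under other pseudocounts or scalings, 52 had the opposite sign, 2 of these with a reported size of 0.2 or more and none past 2-fold. In 4 the 2-fold criterion was no longer met: RPL39 for 0 vs. 15 psu, at 0.99 with the median ratio set to 1 and 0.78 relative to beta-actin, and a minor RPLP2 unigene with a pseudocount of 1, at 0.95 for 0 vs. 5 psu and −0.95 for 5 vs. 15 psu.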

Other observations

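Another set of ribosomal protein unigenes lay outside the turtle and alligator matches. Of 139 unigenes of other species, 36 reached FPKM 100 and were above 0 in all 3 libraries, with summed FPKM of 77357 in freshwater, 82763 at 5 psu and 85543 at 15 psu. The other 103 summed to 439, 181 and 329. Among these, 7 unigenes had a best match filed under the Tibetan antelope whose text names a ribosomal protein of a chloroplast or a similar organelle. Of these 7, 4 were above 0 at 0 psu, with a summed FPKM of 96.8, none at 5 psu and 2 at 15 psu, with a sum of 18.4.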
